A study of Homo sapiens with 18 samples.

Results

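The 3 libraries described here are the DMSO samples of time point 0, chosen by their titles from the 18 RNA-seq libraries of a study of hTERT RPE-1 cells. They are described by abundance, across genes and gene classes, and are set against no other group. hTERT RPE-1 is an established human cell line, derived from retinal pigment epithelium and immortalised by the catalytic subunit of telomerase. Per the labels' protocols, the cells were grown in DMEM F-12 with 10% FBS at 37 °C and 5% CO2 and then kept for 48 h in medium with 0.1% FBS. The titles place the 3 samples in the DMSO arm, their etoposide label is "No", and their cell cycle label is G0/G1. The labels give neither the unit of the time point nor whether the 10 µM triptolide of the protocol, an inhibitor of transcription, had been added at 0. The labels name the 3 samples independent replicates, and RNA was taken with RNeasy columns, treated with TURBO DNA-free and made into TruSeq Stranded mRNA libraries.

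Retinal pigment epithelium is the pigmented monolayer behind the photoreceptors, which recycles retinal in the visual cycle and takes up shed photoreceptor membrane. In culture its cells can lose pigment and junctions and take on mesenchymal features. Withdrawal of serum makes many cultured cells leave the cell cycle, a state held by inhibitors of cyclin-dependent kinases (CDKs) and by the DREAM complex of pocket proteins, E2F4 and LIN subunits, which represses cell cycle genes. Cells that leave the cycle can convert the mother centriole to a basal body and grow a primary cilium, and RPE-1 is a common model of that process.

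The libraries held 9614171, 8758232 and 9507131 counts in replicates 1, 2 and 3, so that 3 counts, the floor of detection used here, equalled 0.312, 0.343 and 0.316 CPM (counts of a gene per 1000000 counts of its library). At least 1 CPM in each library was reached by 12277 genes, of which 11255 are protein-coding. Levels of different genes are compared as TPM, which divides counts by the summed exon length of the gene in GENCODE 29 and scales each library to 1000000. The protein-coding genes summed to 965670, 898360 and 936170 TPM in replicates 1, 2 and 3. Counts of list members highest or lowest in 1 library are on this scale, and the same counts over all genes were not made. Of 19737 protein-coding genes, 11215 (56.8%) reached 1 TPM in each library, and the median over all of them was 5.88 TPM. None of the 37 mitochondrially encoded genes had a count, so the ranks and shares of counts below leave out their mRNAs. All errors are SD over the 3 libraries. No test was run, since the libraries form 1 group, and in bulk RNA fewer cells of a type and less RNA per cell cannot be told apart.

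Replicates 2 and 3 each stood apart from the other libraries in some genes, and these genes are read with care. Over the 12277 detected genes the Pearson correlation of log2 CPM, across genes and thus not over independent replicates, was 0.978 between replicates 1 and 2, 0.965 between 1 and 3 and 0.944 between 2 and 3. In replicate 3, 141 protein-coding genes stood below 5% of their level in both other libraries, where each exceeded 5 CPM, and the same rule found 0 genes in replicate 1 and 0 in replicate 2. Of the 141 genes, 81 had 0 counts in replicate 3, and 54 were among the 72 protein-coding genes above 5 CPM in both other libraries between 28 and 34 Mb of chromosome 6. An example is RPS18, a ribosomal protein gene at chr6:33272010-33276510 (GRCh38), with 1025 and 1060.4 CPM in replicates 1 and 2 and 0 in replicate 3. A further 21 of the 141 genes lie on chromosome 17, 7 on X and 7 on chromosome 19. In replicate 2, 170 protein-coding genes with exons that overlap a gene of the other strand stood above 1 CPM and over 5 times above both other libraries, against 1 gene by the mirrored rule in replicate 1 and 3 genes in replicate 3. BEST1, which encodes the anion channel bestrophin at chr11:61949821-61965515, had 2452 CPM in replicate 2, against 18.4 CPM in replicate 1 and 8.20 CPM in replicate 3. It overlaps the exons of FTH1 on the other strand, which averaged 6595 CPM. Genes typed as antisense held 1.42% of counts in replicate 2 and 0.247% and 0.217% in replicates 1 and 3, and they are not read. The cause of these differences was not tested.

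**Figure D1:**
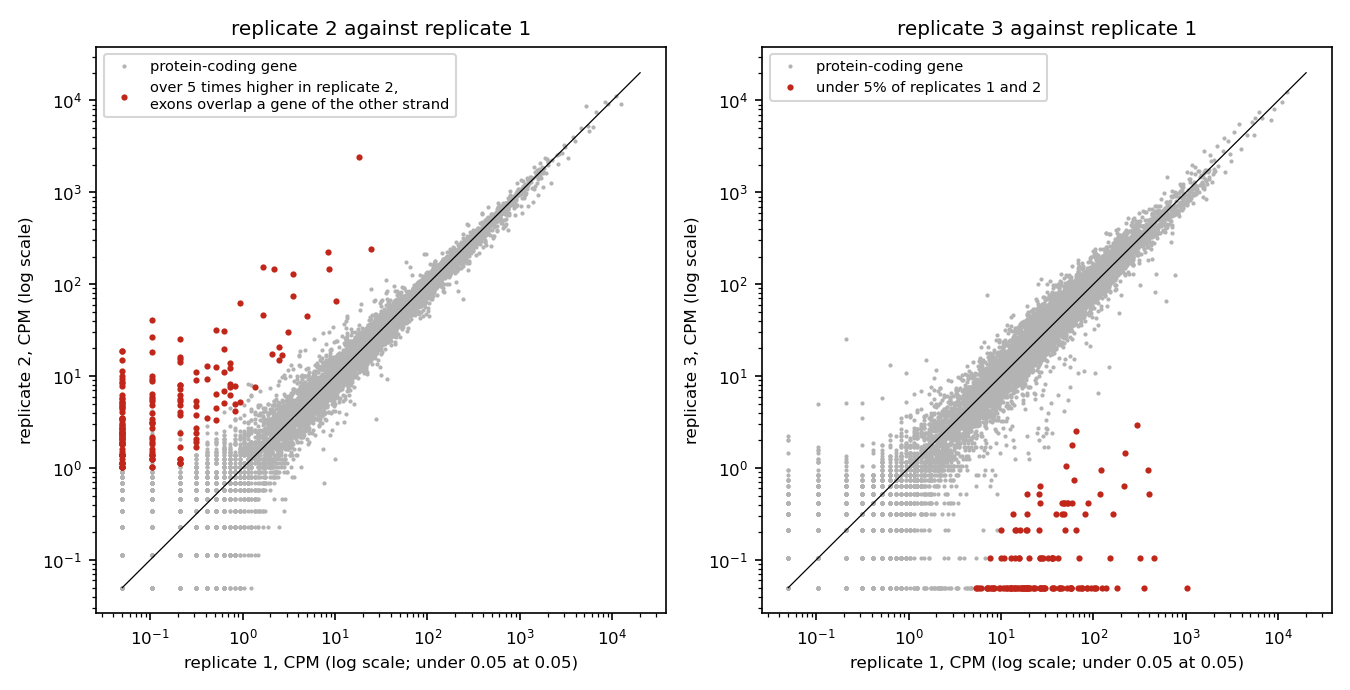
CPM of each protein-coding gene in replicate 2 (left) and replicate 3 (right) against replicate 1, on log scales, with the line of equal values. Red points are the 170 genes high in replicate 2 that overlap a gene of the other strand (left) and the 141 genes near absent from replicate 3 (right). Most of the remaining genes lie near the line, and some lie well off it: RPL41 had 608 CPM in replicate 1 and 65.6 CPM in replicate 3.

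The serum-starved transcriptome was led by mRNAs of the extracellular matrix, the cytoskeleton, translation and glycolysis. The 10 most abundant protein-coding genes held 7.37% ± 0.24 of all counts and the 100 most abundant 21.3% ± 0.36. By CPM the highest was FN1, the gene of the matrix protein fibronectin at chr2:215360440-215436172, with 12452, 9085 and 12499 CPM in replicates 1, 2 and 3. VIM, the mesenchymal intermediate filament vimentin at chr10:17228259-17237593, followed with 11047, 11297 and 9717 CPM. The ranges of FN1 and VIM overlapped, so their order by CPM is not fixed by these libraries. EEF1A1, the elongation factor that brings aminoacyl-tRNA to the ribosome, had 9083, 9190.2 and 8159 CPM. PSAP, the precursor of the lysosomal saposins, had 8259.8, 9695 and 6133 CPM, and GAPDH of glycolysis had 6698, 7391 and 6357 CPM. The 10 genes were completed by FTH1, the heavy chain of the iron store ferritin, the cytoplasmic actins ACTB and ACTG1, the matrix metalloproteinase MMP2 and the pyruvate kinase PKM. SFRP1, a secreted antagonist of Wnt ligands, came next with 3796, 3983 and 5505 CPM.

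**Figure D2:**
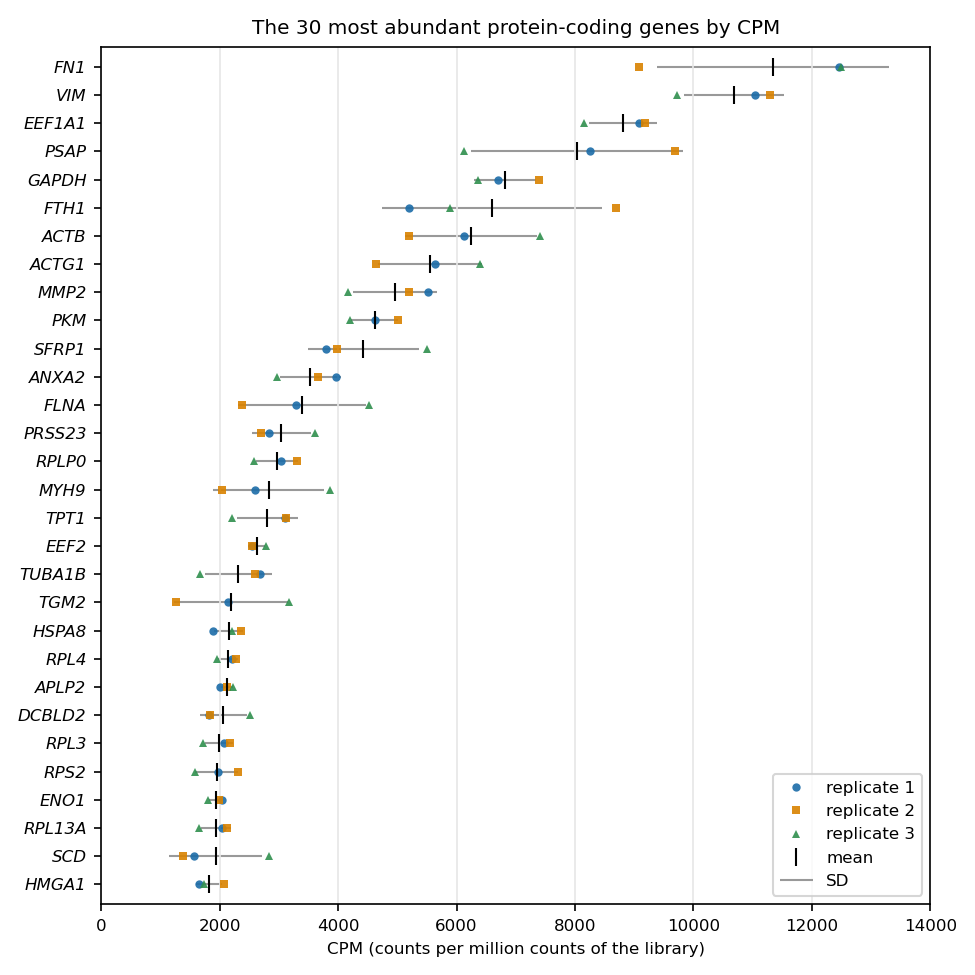
CPM of the 30 protein-coding genes with the highest mean CPM, on a linear axis. Symbols are the 3 libraries, the black tick is the mean and the grey bar the SD; FN1 and VIM lead, and PSAP, FTH1, FLNA, MYH9, TGM2 and SCD differ most visibly between libraries.

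Per length, short mRNAs moved up the order. FTH1 had 10740, 16369 and 12618 TPM in replicates 1, 2 and 3, and TMSB10, an actin-sequestering thymosin, had 13303, 12145 and 9605 TPM. PSAP followed with a mean of 10124 ± 1681 TPM, GAPDH with 9391 ± 109 TPM and VIM with 8515 ± 420 TPM. FN1, with 17315 bases of merged exons, was 23rd on this scale at 2720.2 ± 622 TPM. The ferritin light chain FTL (7005 ± 1171 TPM), the calcium-binding S100A6 (5922 ± 882 TPM) and the galectin LGALS1 (5457 ± 803 TPM) were also among the 11 highest.

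The 85 cytosolic ribosomal protein genes held 6.05% ± 0.98 of counts, with 4.96% in replicate 3 against 6.34% and 6.85% in replicates 1 and 2. Of these genes, 71 of the 83 at or above 1 TPM were lowest in replicate 3, a share that was not counted over all genes. Among the 85 genes, 3, including RPS18 and RPS9, belong to the genes near absent from replicate 3. Genes typed as processed pseudogenes held 0.563% of counts in replicate 3, against 0.158% and 0.187% in replicates 1 and 2. Whether these differences are linked was not tested. The 28 actin cytoskeleton genes held 3.96% ± 0.55, the 31 secreted matrix and binding proteins 2.42% ± 0.37, the 18 glycolytic genes 1.95% ± 0.12 and the 16 translation factors 2.01% ± 0.075. The 16 iron and redox genes held 1.63% in replicate 2, against 1.12% in replicate 1 and 1.11% in replicate 3. On the TPM scale 11 of them were highest in replicate 2, a share also not counted over all genes. RPS12 was the highest ribosomal protein gene per length (5058 ± 596 TPM), and RPL36A the lowest (9.32 ± 0.67 TPM). RPL36A, EIF4A1 (10.0 ± 2.7 TPM) and EEF1G, listed at 0 in all 3 libraries, share exons with another gene of the same strand, so the deposited counts need not be the full level of these genes.

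Mesenchymal genes were among the most abundant mRNAs. Of the 57 listed genes, 47 (82.5%) reached 1 TPM in each library, against 56.8% of all protein-coding genes. The median was 63.9 TPM over the list, against 5.88 TPM over all protein-coding genes. Vimentin stood at the top. MMP2, a gelatinase of the matrix, had 4697, 4031 and 3669.8 TPM in replicates 1, 2 and 3, and an exon of it overlaps another gene of the same strand. CCN1 (1079.6 ± 288 TPM) and CCN2 (941 ± 279 TPM), matricellular proteins induced by serum and by YAP, and SPARC (823 ± 245 TPM), a collagen-binding matrix protein, were also high. On the TPM scale replicate 2 was lowest in 36 of the 47 genes, a share that was not counted over all genes. The list summed to 33093, 26022 and 32157 TPM in replicates 1, 2 and 3. The sum over all protein-coding genes was also lowest in replicate 2, at 965670, 898360 and 936170 TPM. Of all counts the list held 4.80%, 4.04% and 4.59%. Over the 30 listed genes whose exons overlap no other gene, the median was 30.0 TPM.

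Of 18 adhesion and cytoskeletal members of the list, 17 reached 1 TPM in each library and 13 reached 100 TPM in each, with a median of 405 TPM. NT5E, the surface enzyme CD73, averaged 1037 ± 199 TPM, the hyaluronan receptor CD44 711 ± 39.7 TPM, and the integrin chain ITGB1 918 ± 198 TPM. TAGLN, a marker of smooth muscle and myofibroblasts, had 1130.2, 575 and 1023 TPM in replicates 1, 2 and 3. ACTA2, smooth muscle actin, had 344, 88.1 and 190.2 TPM, with replicate 1 highest and replicate 2 lowest. The cadherin of mesenchymal and neural cells, CDH2, had 190.2, 134 and 229 TPM. Other members were low: S100A4 averaged 6.32 ± 1.9 TPM, the TGF-beta co-receptor ENG 5.33 ± 2.4 TPM and the smooth muscle calponin CNN1 2.56 ± 1.1 TPM, and the mesenchymal cadherin CDH11 had 1 count in replicate 3 and 0 counts in replicates 1 and 2.

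Matrix members ranged from high to near-silent genes, and the collagens of the list all stood below fibronectin. FBN1 (fibrillin) averaged 177.0 ± 76.7 TPM and LOX, which cross-links collagen and elastin, 487 ± 158 TPM. The highest collagens were COL5A2 (61.2 ± 18.9 TPM) and COL6A1 (39.1 ± 3.5 TPM). COL1A1, a chain of type I collagen, had 26.3, 12.8 and 6.80 TPM, and COL1A2, the other chain, had a single count, in replicate 3 (0.041 TPM). COL3A1 (0.43 ± 0.23 TPM), the proteoglycan LUM (0.29 ± 0.15 TPM) and COL5A1 (0.054 ± 0.063 TPM) were also near or under the floor. The 9 mesenchymal transcription factors all reached 1 TPM in each library, led by FOXC2 (60.4 ± 1.5 TPM), PRRX1 (33.1 ± 2.6 TPM) and TWIST1 (31.7 ± 5.1 TPM). ZEB1 averaged 19.9 ± 5.3 TPM, SNAI1 18.8 ± 5.6 TPM and SNAI2 9.88 ± 3.5 TPM. All 7 receptors of the list did as well. AXL, a receptor kinase for GAS6, had 579, 383 and 751 TPM, TGFBR2 217 ± 54.1 TPM and PDGFRB 63.9 ± 10.8 TPM.

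Epithelial genes ranged from a few abundant mRNAs to some with no count. Of 57 listed genes, 26 (45.6%) reached 1 TPM in each library, against 56.8% of all protein-coding genes, 12 had 0 counts in all 3, and the list median was 0.84 TPM, below the median of all protein-coding genes. CDH1 (E-cadherin, chr16:68737225-68835548), the adhesion molecule of most epithelia, had 0 counts in each library, which allows up to 0.312, 0.343 and 0.316 CPM. The adhesion molecule EPCAM had 1 count, in replicate 2, and the epithelial splicing factor ESRP1 1 count, in replicate 3. The epithelial transcription factors GRHL2, OVOL1 and OVOL2, the tight junction claudin CLDN3, the keratins KRT5 and KRT14 and the trafficking GTPase RAB25 had 0 counts. The occludin gene OCLN had 0.24 ± 0.24 TPM.

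The abundant epithelial members were simple keratins and parts of desmosomes and polarity complexes. KRT18 had 765, 596 and 1333 TPM in replicates 1, 2 and 3, and its partner KRT8 had 419, 325 and 579.7 TPM, both highest in replicate 3 and lowest in replicate 2. VIM exceeded KRT18 by 11.7, 14.04 and 6.14 times on the TPM scale in replicates 1, 2 and 3. JUP, plakoglobin of desmosomes and adherens junctions, had 208, 202 and 168 TPM, and the desmosomal cadherin DSG2 had 115, 78.0 and 142 TPM. KRT80 averaged 104 ± 37.6 TPM, KRT7 47.3 ± 11.1 TPM, and the desmosomal linker DSP 37.7 ± 18.5 TPM. CLDN1, a claudin of tight junctions, averaged 28.97 ± 3.4 TPM. TJP1, the junction scaffold ZO-1, had 17.8, 9.64 and 1.62 TPM, lowest in replicate 3. The polarity gene SCRIB had 35.1 and 30.2 TPM in replicates 1 and 2 and 0.30 TPM in replicate 3, where it belongs to the near-absent genes. The polarity genes PRKCI (45.9 ± 16.3 TPM), LLGL1 (52.0 ± 3.3 TPM) and PARD3 (35.6 ± 4.2 TPM) were measured in every library, whereas LLGL2 averaged 0.84 ± 0.29 TPM and CRB3 had 1 count in replicate 1 and 0 counts in replicates 2 and 3.

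**Figure D3:**
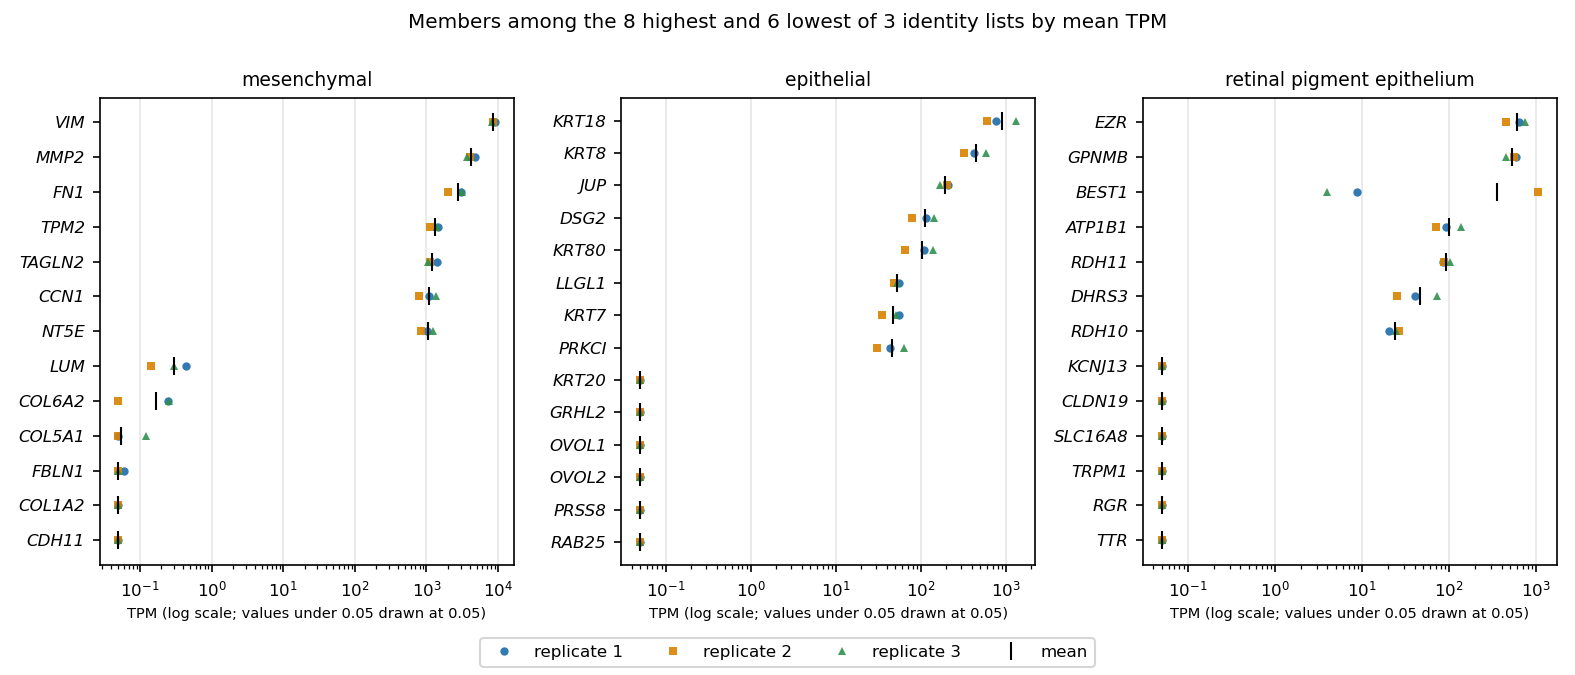
TPM of members among the 8 highest and 6 lowest of the mesenchymal, epithelial and retinal pigment epithelium lists by mean TPM, on log axes, with 1 symbol per library and the mean as a tick. VIM, MMP2 and FN1 lead the first panel and KRT18 and KRT8 the second; BEST1 spans from 3.99 to 1049 TPM, and its replicate 2 value is not read as expression.

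Several genes that define mature retinal pigment epithelium were at or near 0, so these markers do not bear out the labelled cell type in its mature form. Of 29 listed genes, 13 (44.8%) reached 1 TPM in each library, against 56.8% of all protein-coding genes. The list median was 0.51 TPM, 11 genes were at or under 3 counts in each library, and 9 of these had 0 counts throughout. RPE65, the isomerase of the visual cycle, had 0.17, 0.17 and 0.35 TPM in replicates 1, 2 and 3. LRAT, which makes retinyl esters, had 0, 0 and 0.42 TPM, and RLBP1, the retinal-binding protein of the same cycle, had 2.42, 2.20 and 0.46 TPM. The retinal-binding receptor RGR, the retinol carrier TTR, the potassium channel KCNJ13, the claudin CLDN19 and the pigment genes DCT, MLANA and OCA2 had 0 counts. TYR, the rate-limiting enzyme of melanin synthesis, had 0, 0.14 and 0 TPM. BEST1 had 8.65 and 3.99 TPM in replicates 1 and 3, and its replicate 2 value is not read. It is counted among the 13 genes above. Whether reads of FTH1, on the other strand, add to the BEST1 counts in replicates 1 and 3 was not tested.

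The high members of the list are also used outside this tissue. EZR, the membrane-cytoskeleton linker ezrin, had 629, 446 and 734 TPM. GPNMB, a glycoprotein of pigment cells and macrophages, had 577, 548 and 449 TPM. The retinol dehydrogenases RDH11 (92.0 ± 9.3 TPM) and RDH10 (23.7 ± 3.1 TPM) and the retinal reductase DHRS3 (46.0 ± 24.4 TPM) were measured in every library. SERPINF1, which encodes the neurotrophic factor PEDF, had 15.9, 18.1 and 4.92 TPM, and MERTK, the receptor for uptake of photoreceptor membrane, averaged 7.44 ± 2.0 TPM.

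Of 16 transcription factors of the developing eye and of pigment cells, 9 (56.2%) reached 1 TPM in each library, against 56.8% of all protein-coding genes, and the median of the list was 2.07 TPM. SIX3, a factor of forebrain and eye, had 108, 121 and 142 TPM in replicates 1, 2 and 3, and SOX9 had 109.6, 104 and 133 TPM. OTX2 had 44.4, 42.0 and 31.4 TPM, and MITF, the regulator of pigment genes, had 19.8, 17.3 and 41.4 TPM. PAX6 averaged 16.3 ± 1.8 TPM and LHX2 4.83 ± 0.40 TPM. RAX, SIX6, CRX and SOX10 had 0 counts.

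Blood, endothelial, muscle and melanocyte markers were low, whereas some neural and fibroblast markers were measured well above 1 TPM. None of 11 blood, 8 endothelial and 7 muscle genes reached 1 TPM in all 3 libraries, with HBA1, HBB, CDH5, MYOD1 and CKM at 0 counts and PTPRC, the leukocyte antigen CD45, at 0.38, 0.14 and 0.10 TPM. Of 7 melanocyte genes only PMEL did, at 1.34, 5.93 and 1.05 TPM, and its exons overlap a gene of the other strand. Of 9 neural and glial genes 4 did, namely SNAP25 (16.7 ± 2.6 TPM), MAP2 (10.4 ± 3.8 TPM), TUBB3 and MBP, whereas GFAP, OLIG2 and S100B stood at or near 0. Of 12 fibroblast genes, 11 of which are also in the mesenchymal list, 6 reached 1 TPM in each library, led by THY1 (352 ± 39.1 TPM) and FAP (106 ± 20.0 TPM), with PDPN at 0 counts. Of 39 HOX genes, which mark position along the body axis, 10 did, and 7 of them are HOXB genes. HOXB9 averaged 28.6 ± 2.4 TPM, HOXB6 23.1 ± 2.7 TPM and HOXC8 11.1 ± 2.7 TPM, whereas none of 9 HOXD genes reached 1 TPM in each library.

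**Figure D4:**
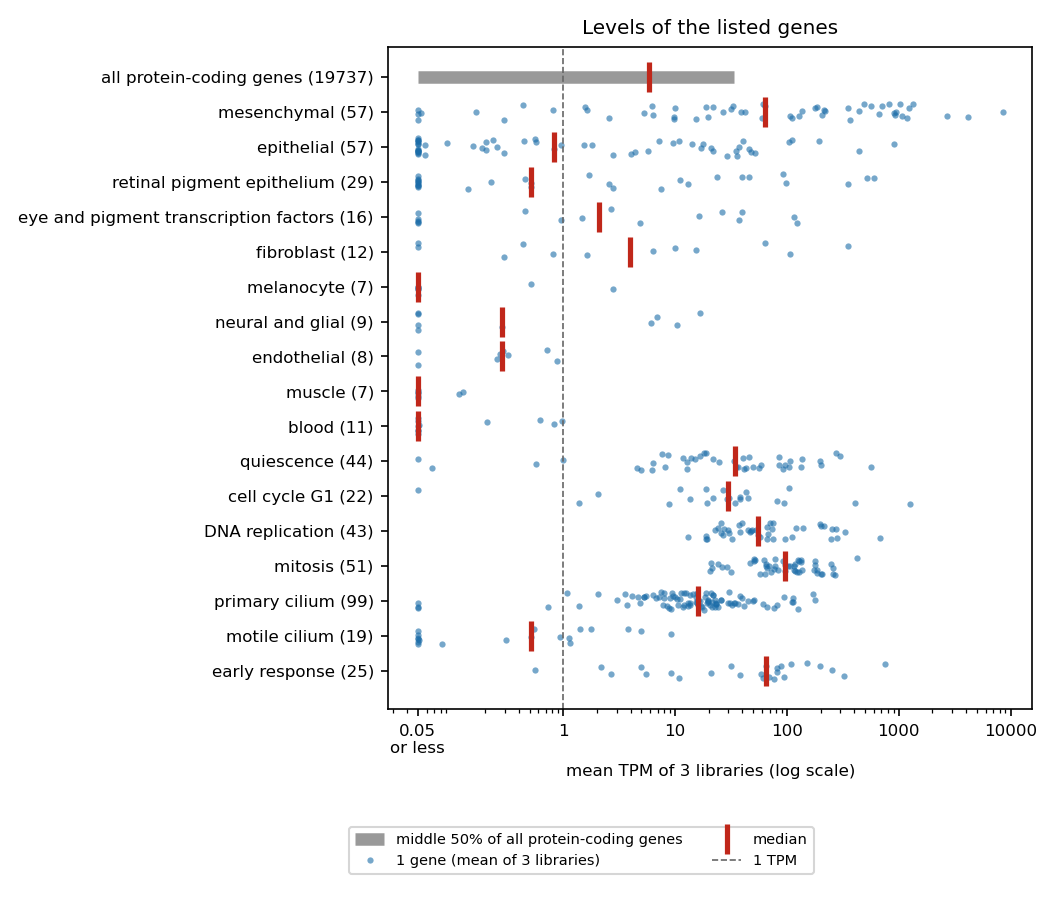
Mean TPM over the 3 libraries of each member of 17 gene lists, on a log axis, with values of 0.05 TPM or less drawn at 0.05; numbers in brackets are list sizes, red ticks are list medians, and the grey bar is the middle 50% of all protein-coding genes. Among these 17 lists, the mitosis, early response, mesenchymal and DNA replication lists have the highest medians, at 96.0, 65.4, 63.9 and 55.4 TPM. Over all lists of the report the actin cytoskeleton genes have the highest median, at 926 TPM.

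Genes linked to quiescence were present at moderate levels. Of 44 listed genes, 40 (90.9%) reached 1 TPM in each library, against 56.8% of all protein-coding genes. The list median was 34.1 TPM, against 27.4 TPM over the protein-coding genes at or above 1 TPM. Among the CDK inhibitors, CDKN1A (p21) had 301, 333 and 261 TPM in replicates 1, 2 and 3, and CDKN2A, the locus of p16 and p14ARF, had 197, 210.2 and 183 TPM. CDKN1B (p27), which accumulates in serum-starved cells, had 132, 123 and 152 TPM. CDKN2C (p18) averaged 93.1 ± 1.9 TPM, CDKN2D (p19) 50.1 ± 6.2 TPM, CDKN2B (p15) 40.3 ± 9.4 TPM and CDKN1C (p57) 1.001 ± 0.88 TPM. In this order CDKN2D and CDKN2B overlap between libraries, and the other neighbours do not. With the length of the longest transcript in place of merged exons, CDKN2A stood above CDKN1A, at 461 against 279 TPM, so the order of these 2 genes depends on the length used.

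All 13 pocket protein and DREAM genes reached 1 TPM in each library. RB1, the retinoblastoma protein, had 52.6, 38.7 and 78.4 TPM, RBL2 (p130), the pocket protein of quiescent cells, had 49.2, 40.6 and 48.5 TPM, and RBL1 (p107) had 20.97, 15.1 and 29.1 TPM. The repressor E2F4 averaged 84.8 ± 5.9 TPM and its partner TFDP1 201.0 ± 30.8 TPM. The LIN subunits were lower, with LIN9 at 12.9 ± 3.7 TPM, LIN54 at 12.8 ± 6.6 TPM, LIN52 at 15.1 ± 1.6 TPM and LIN37 at 5.01 ± 1.1 TPM. DYRK1A, the kinase that phosphorylates LIN52, averaged 8.18 ± 1.2 TPM.

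Growth arrest and FOXO-linked genes were led by GAS6, the vitamin K-dependent ligand of AXL first described as a growth arrest gene, with 717, 456 and 529 TPM. TXNIP, a glucose-responsive thioredoxin inhibitor, had 362, 251 and 206 TPM. The antiproliferative BTG1 averaged 134 ± 12.4 TPM, YPEL5 106 ± 18.0 TPM, KLF6 105 ± 20.3 TPM and FOXO3 33.4 ± 11.6 TPM. GAS1, another growth arrest gene (0.57 ± 0.17 TPM), PDK4, a FOXO target (0.067 ± 0.12 TPM), and PRRX2 (0 counts) stood under 1 TPM.

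Genes of the G1 phase were also present as mRNA, with 19 of 22 (86.4%) at or above 1 TPM in each library, against 56.8% of all protein-coding genes. Their median was 29.9 TPM, against 27.4 TPM over the protein-coding genes at or above 1 TPM. CCND1, the cyclin through which growth factors drive exit from G1, had 1268, 1264 and 1864.5 CPM in replicates 1, 2 and 3, and a mean of 1259.9 ± 365 TPM. CCND3 had 33.0, 35.6 and 35.1 TPM and CCND2 1.10, 0.61 and 2.43 TPM, so the ranges of the 3 D-type cyclins did not overlap. CCND1 exceeded CCND3 by 33.4, 28.1 and 47.7 times on the TPM scale. Of their kinases, CDK4 averaged 403 ± 34.1 TPM and CDK6 19.2 ± 11.2 TPM. The cyclins E were lower, with CCNE2 at 29.1 ± 12.8 TPM and CCNE1 at 11.05 ± 2.8 TPM. MYC had 70.8, 79.4 and 95.5 TPM, and E2F1 88.6, 91.3 and 103.7 TPM. CDK7, the kinase of TFIIH, had 46.4 and 44.8 TPM in replicates 1 and 2 and 0.76 TPM in replicate 3, among its near-absent genes.

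Genes of DNA replication and mitosis were measured in every library, although the cell cycle label reads G0/G1. All 43 replication genes reached 10 TPM in each library, as did 8092 of all 19737 protein-coding genes, and the list median was 55.4 TPM. PCNA, the sliding clamp of DNA polymerases, had 663, 623 and 764 TPM in replicates 1, 2 and 3. The thymidylate synthase TYMS averaged 329 ± 29.03 TPM, the flap endonuclease FEN1 272 ± 34.3 TPM and the ribonucleotide reductase subunits RRM1 and RRM2 279 ± 60.9 and 248 ± 35.9 TPM. The 6 MCM2-7 helicase subunits ranged from MCM5 at 75.1 ± 9.7 TPM to MCM7 at 253 ± 21.5 TPM. CDC6 and CDT1, which load the helicase at origins, averaged 55.4 ± 15.1 and 48.6 ± 8.2 TPM. On the TPM scale replicate 3 was highest in 37 of the 43 genes, a share that was not counted over all genes.

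All 51 mitosis genes reached 1 TPM in each library, against 56.8% of all protein-coding genes, and 16 reached 100 TPM in each. The list median of 96.0 TPM was above that of the mesenchymal list. The median over the protein-coding genes at or above 1 TPM was 27.4 TPM. UBE2C, the ubiquitin-conjugating enzyme of the anaphase-promoting complex, had 472, 509.6 and 289.7 TPM. CDC20, the activator of that complex, had 288, 278 and 209 TPM. TOP2A, the topoisomerase II isoform of dividing cells, had 269, 212 and 292 TPM, and the proliferation marker MKI67 (Ki-67) had 91.5, 69.0 and 144 TPM. CCNB1, cyclin B1 of the mitotic kinase, had 248, 222 and 140.1 TPM, and the kinase CDK1 itself 137, 118 and 153 TPM. FOXM1 (205 ± 21.1 TPM) and MYBL2 (96.0 ± 10.8 TPM), which activate genes of the late cycle, were also measured. SPC25 of the kinetochore had 44.6 and 31.04 TPM in replicates 1 and 2 and 3.48 TPM in replicate 3. No library of proliferating cells is part of the series, so whether these levels lie below those of growing cells cannot be read. Bulk RNA also does not tell expression in some cells from expression in all.

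**Figure D5:**
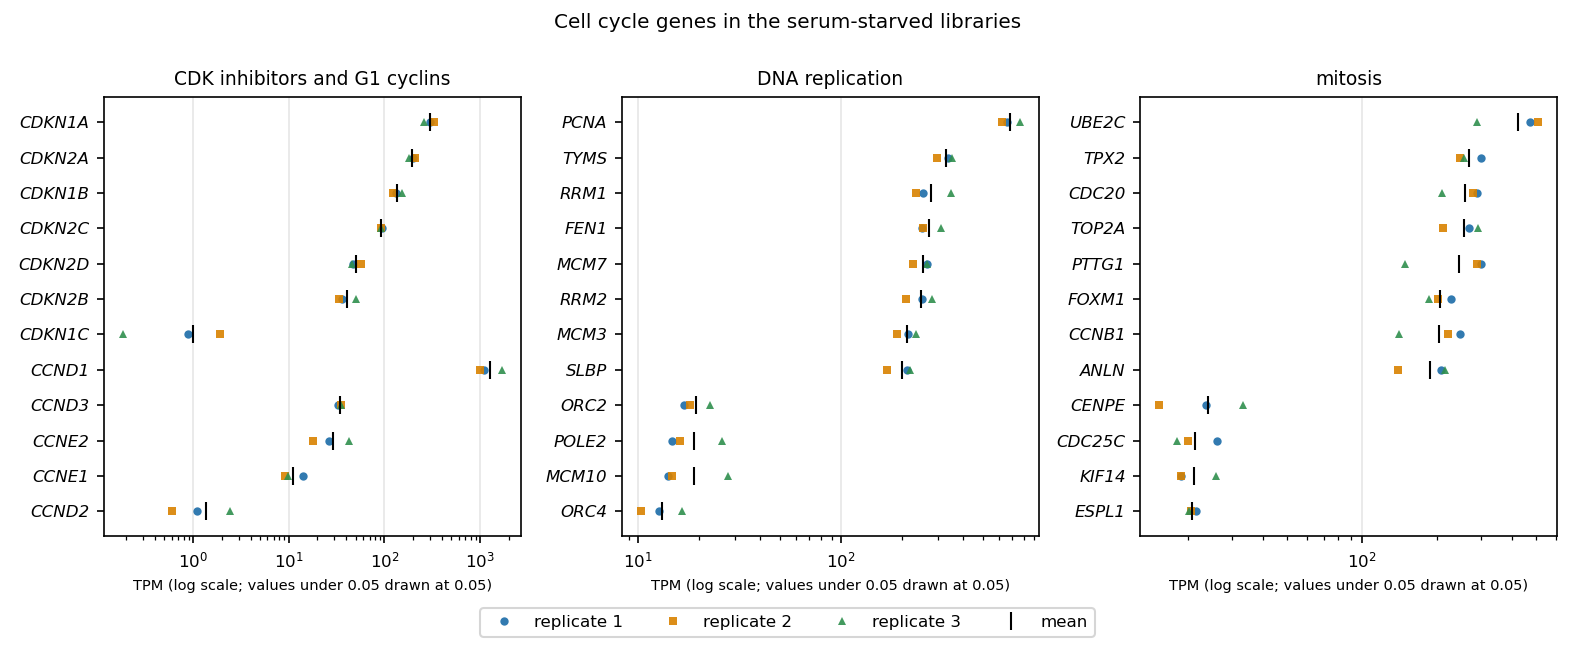
TPM of the CDK inhibitors and G1 cyclins (left) and of the 8 highest and 4 lowest members of the DNA replication (middle) and mitosis (right) lists, on log axes that differ between panels, with 1 symbol per library and the mean as a tick. CCND1 stands apart from CCND3 and CCND2, and UBE2C, PTTG1 and CCNB1 are lowest in replicate 3.

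The libraries also differed along gene length. From the shortest to the longest of 4 length bins of the protein-coding genes detected, the median log2 ratio of replicate 3 to replicate 1 ran from -0.17 to 0.19, and that of replicate 2 to replicate 1 from 0.084 to -0.11. The part of length in the differences between libraries named above was not tested.

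Most promoters found for the mitosis genes held the letters of a motif bound by DREAM. The list was made of cell cycle genes, the class that DREAM represses, so the share describes the list and not these libraries. CHR, the cell cycle genes homology region to which DREAM binds through LIN54, has the letters TTTGAA. The letters were searched on both strands of the 300 bases around each gene's start (250 before and 50 after it), as given by RefSeq on GRCh38.p14. Of the 51 genes, 44 had an entry, and 30 of these (68.2%) held TTTGAA, against 11.9% of 14860 promoters of protein-coding genes. Promoters of CDC20 (chr1:43358861-43358980, plus strand) and ANLN (chr7:36389742-36389861, plus strand) are shown as the 120 bases before the start, because they belong to the highest genes whose match lies there. Capitals mark TTTGAA or its reverse complement, and the match ends 60 bases before the start in CDC20 and 21 in the distal copy of ANLN.
CDC20: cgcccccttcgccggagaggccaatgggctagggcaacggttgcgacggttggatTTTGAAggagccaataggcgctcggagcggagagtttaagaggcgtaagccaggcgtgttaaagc
ANLN: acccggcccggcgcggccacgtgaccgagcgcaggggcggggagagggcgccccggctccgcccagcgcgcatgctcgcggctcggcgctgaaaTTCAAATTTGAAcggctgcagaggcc
CDC20 averaged 258 ± 43.2 TPM and ANLN, a scaffold of the cleavage furrow, 188 ± 41.9 TPM. TOP2A, PRC1, NUSAP1 and CDK1 also held the letters, at 258, 179.6, 178 and 136 TPM. A match is a run of letters and not a measured site.

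Components of the primary cilium were expressed almost completely, at lower levels than cell cycle genes. Of 99 listed genes 93 (93.9%) reached 1 TPM in each library, against 56.8% of all protein-coding genes, and 4 reached 100 TPM. The list median was 16.1 TPM, against 27.4 TPM over the 11215 protein-coding genes at or above 1 TPM. The list held 0.354% ± 0.0059 of counts, the smallest spread relative to the mean among the 14 lists summed in this way.

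Intraflagellar transport, which carries cargo along the axoneme, was represented by all 17 IFT-B and all 6 IFT-A genes. IFT57 had 81.4, 85.6 and 78.8 TPM in replicates 1, 2 and 3, IFT52 92.1, 76.4 and 61.9 TPM, and IFT88, the subunit most often used to abolish cilia, 17.4, 15.3 and 15.3 TPM. TTC30A was the lowest IFT-B gene at 4.66 ± 0.71 TPM. The IFT-A genes lay between 10.45 TPM (TTC21B) and 21.8 TPM (WDR19). Of the motors, the kinesin-2 subunits KIF3A and KIF3B averaged 12.9 ± 5.7 and 51.2 ± 9.1 TPM, the heavy chain of dynein-2 DYNC2H1 15.4 ± 7.7 TPM and its intermediate chain WDR34 178 ± 4.2 TPM. The homodimeric kinesin KIF17 was low, at 0.73 ± 0.30 TPM.

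All 21 transition zone and all 14 basal body genes reached 1 TPM in each library. TCTN3, a tectonic of the transition zone, had 202, 168 and 149.5 TPM, and CEP290, which spans the zone, had 12.8, 11.7 and 21.7 TPM. CEP164, the distal appendage protein that docks the mother centriole, had 20.1, 19.1 and 19.7 TPM. CCP110 (15.6 ± 5.4 TPM) and CEP97 (8.40 ± 2.2 TPM), which cap the centriole and are removed before a cilium grows, were also measured. TTBK2, the kinase needed for that removal, averaged 7.19 ± 3.9 TPM. Of 9 BBSome genes, which export membrane proteins from the cilium, 8 did, from ARL6 (4.84 ± 1.4 TPM) to BBS2 (33.4 ± 1.8 TPM). BBS1 had 1.49, 0.78 and 0.97 TPM and shares exons with neighbours on both strands.

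Membrane and Hedgehog components were the most uneven module, with 18 of 22 at or above 1 TPM in each library and 3 at 0 counts. TULP3, an adaptor for ciliary receptors, had 121, 118.5 and 134 TPM, and PKD2, a ciliary cation channel, averaged 113 ± 30.5 TPM. The Hedgehog transducer SMO had 25.8, 27.5 and 23.2 TPM, its negative regulators SUFU and GPR161 20.6 ± 1.9 and 32.1 ± 7.3 TPM, and GLI3 9.50 ± 3.6 TPM. GLI1 (3.02 ± 0.089 TPM) and PTCH1 (1.39 ± 0.27 TPM), which are targets of the active pathway, were low. EVC averaged 114 ± 18.9 TPM, whereas EVC2, whose protein forms a complex with that of EVC, had 0 counts in each library. The ciliary receptors SSTR3 and MCHR1 of neurons also had 0 counts.

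RFX transcription factors act on many ciliary genes through the X-box. Its form GTTNCC, any 2 bases and GGNAAC, searched on both strands of the same windows, was held by 3 of the 83 ciliary genes with an entry (3.61%), against 0.451% of all promoters. The 3 genes were TMEM107, TMEM17 and ARL6. TMEM107 (chr17:8176381-8176500, minus strand) and TMEM17 (chr2:62506196-62506315, minus strand) hold it in the 120 bases before the start, which are printed with the match in capitals.
TMEM107: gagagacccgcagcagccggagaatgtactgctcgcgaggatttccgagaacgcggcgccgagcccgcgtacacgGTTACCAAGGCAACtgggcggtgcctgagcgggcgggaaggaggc
TMEM17: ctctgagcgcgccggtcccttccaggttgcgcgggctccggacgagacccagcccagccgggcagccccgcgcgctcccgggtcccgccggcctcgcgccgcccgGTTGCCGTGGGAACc
Both encode transition zone membrane proteins, with 17.2 ± 2.3 TPM for TMEM107 and 5.28 ± 2.2 TPM for TMEM17. TMEM107 shares exons with another gene of the same strand.

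Genes of motile cilia were mostly absent. Of 19 listed genes 4 reached 1 TPM in each library, namely CAPS (9.16 ± 1.9 TPM), MCIDAS (4.96 ± 1.1 TPM), CCDC40 and TPPP3. FOXJ1, the master regulator of motile ciliogenesis, had 0 counts, as did the axonemal dynein genes DNAH9 and DNAI2. RSPH9, a radial spoke gene, had 0 TPM in replicates 1 and 3 and 11.4 TPM in replicate 2, and it overlaps a gene of the other strand. Of 10 genes of cilium disassembly, 9 reached 1 TPM in each library. AURKA, the kinase that triggers disassembly, had 139.7, 120.1 and 98.2 TPM, the deacetylase HDAC6 20.8, 17.6 and 16.4 TPM, and NEDD9, the activator of AURKA at the basal body, 5.06, 1.18 and 6.05 TPM. AURKA, PLK1 and NEK2 are also in the mitosis list.

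Early response genes, which serum induces within minutes, were not silent after 48 h in 0.1% FBS. Of 25 genes 21 (84.0%) reached 1 TPM in each library, against 56.8% of all protein-coding genes, with a median of 65.4 TPM. FOSL1, an AP-1 subunit, had 732, 713 and 817 TPM in replicates 1, 2 and 3, and JUN 282, 304 and 167 TPM. EGR1 had 254, 269.7 and 67.9 TPM, FOS 53.4, 32.6 and 8.33 TPM, and ATF3 26.3, 33.6 and 2.94 TPM, all lowest in replicate 3. IER3, which lies on chromosome 6, had 16.7 and 10.6 TPM in replicates 1 and 2 and 0 counts in replicate 3. Replicate 3 was lowest in 13 of the 21 genes, a share that was not counted over all genes. The median coefficient of variation over the 17 early response genes at or above 20 CPM was 32.9%, against 13.9% over 7708 protein-coding genes. The nuclear receptors NR4A1 (5.00 ± 0.51 TPM) and NR4A3 (0.56 ± 0.25 TPM) were low in all 3 libraries.

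Families of surface and cytoskeletal genes were ordered by mean TPM. Among 25 integrins, ITGB1 led, with 986, 695 and 1073 TPM in replicates 1, 2 and 3, followed by ITGA3 (585 ± 120 TPM), ITGB5 (482 ± 83.6 TPM), the fibronectin receptor chain ITGA5 (368 ± 36.3 TPM) and the laminin receptor chain ITGA7 (224 ± 13.3 TPM). ITGA3 and ITGB5 overlapped between libraries, and the other neighbours among these 5 did not. Of 26 growth factor receptors, AXL led at 571 ± 184 TPM, with EPHA2 at 215 ± 27.8 TPM, MET at 184.5 ± 63.2 TPM and EGFR at 103.5 ± 39.1 TPM, the last 3 overlapping in pairs of neighbours. Of 13 cadherins, CDH2 was above CDH13 (40.5 ± 2.6 TPM) and CDH24 (37.8 ± 2.5 TPM). Among the tubulins, TUBA1B led at 2653 ± 577 TPM. TUBB had 437 and 348 TPM in replicates 1 and 2 and 0 in replicate 3, where it belongs to the near-absent genes.

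Of the telomere genes, TERT, the transgene of the line, had 7.87, 7.11 and 3.77 TPM, and TERC, the RNA template of telomerase, which carries no poly(A) tail in its mature form, had 0 counts. Counts of TERT do not tell transgene from endogenous transcripts.

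Outside the genes near absent from replicate 3 or high in replicate 2, most genes differed little between libraries. Of 7635 such protein-coding genes at or above 20 CPM, 74.6% differed by less than 1.5 times between the highest and the lowest library, and 459 (6.01%) by 2 times or more. Replicate 3 was the highest library in 331 of these 459 and the lowest in 112. The 10 largest ratios over all protein-coding genes at or above 20 CPM with a count in each library belonged to genes near absent from replicate 3. FLOT1, a scaffold of membrane microdomains, led with 451.7, 459 and 0.11 CPM, followed by the chloride channel gene CLIC1 with 319, 309 and 0.11 CPM. BAG6, RPS9, ATF6B, PRRC2A, VPS52 and PHF1 were also among them, and 8 of the 10 lie on chromosome 6.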

How the data were processed

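RNA of 3 DMSO libraries of time point 0 was analysed. Per the submitters' processing notes, reads were processed by the authors with bcl2fastq, HISAT2 and featureCounts on GRCh38 (also named hg38). Versions, annotation, strand setting and the treatment of multiply mapping reads are not given in the sources used. The deposited files hold raw read counts per gene, without normalization by the authors. Of 58051 genes, 57447 matched GENCODE release 29 (0.0273% of counts at most unmatched). CPM and TPM (merged exon lengths) were computed with Python 3.11.15, pandas 2.3.3 and numpy 2.4.6 and tested on simulated counts. A list member counted as expressed at 1 TPM in each library. TMM factors (edgeR 4.0.16, R 4.3.3) were 1.01, 1.01 and 0.982. DESeq2 1.42.0 size factors, other minima, other lengths and left-out libraries or genes were alternatives. Depth sets a floor of 3 counts, and the exact Clopper-Pearson 95% interval of the antisense share in replicate 2, for example, was 1.413% to 1.429%, which covers counting error only. The 32 lists hold 813 different genes. The members and lists were chosen with earlier results of these data known. Named genes were drawn from the 30 highest by CPM, up to 8 highest and 6 lowest of each list by TPM, members of small modules, the 10 largest ratios between libraries and list members lost from 1 library, and further list members were named for their role after their values were seen. The labels name independent replicates without saying what was separate, so the SD may be technical in part. Some genes of the lists are not reported here.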

Additional observations from a re-analysis of the deposited data

How the results depend on the processing

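No paired analysis was possible because the values come from no test and from 1 group. Of 203 values recomputed, 187 stayed within 1.5 times (counts) or 1 SD (medians and shares). Scaling by TMM or DESeq2, totals without antisense-type genes, minima of 0.5 and 5, and leaving out genes with 0 counts in replicate 3 changed none beyond that. Leaving out the genes near absent from replicate 3, an alternative chosen after the data were seen, changed none either. Among the lists recomputed only the epithelial and G1 lists hold such a gene, 1 each. The list values could thus hardly change under this alternative, and it says little about them. Without any filter 23734 genes had a count in some library, against 12277 detected. With the longest transcript as length, the quiescence median fell to 24.78 TPM, against 34.14, and the mitosis median to 81.61 TPM, against 95.96. Leaving out members whose exons overlap another gene removes members by construction and left 6 of 18 retinal pigment epithelium, 14 of 32 epithelial, 22 of 30 mesenchymal, 22 of 26 quiescence, 8 of 9 G1, 24 of 24 replication, 32 of 32 mitosis and 44 of 48 primary cilium genes at or above 1 TPM. The mesenchymal median was then 30.03 TPM, against 63.92, and the quiescence median 26.11 TPM. Leaving out 1 library in turn moved the quiescence median between 30.88 and 35.72 TPM, beyond its small SD of 0.263. Depth limits genes under 3 counts, for which a level of up to 0.312 to 0.343 CPM is not detectable.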
